A study of Mus musculus with 9 samples.

Results

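The collagen genes were taken as every gene of the table whose symbol is Col, a number, the letter a and a number, with nothing after it. This rule, which uses names and no measured value, took 44 of the 55286 genes. By structure and assembly they are 11 fibrillar collagens, 6 chains of the basement membrane collagen type IV, 6 chains of the beaded filament collagen type VI, and 9 FACITs (fibril-associated collagens with interrupted helices). The others are 4 transmembrane collagens, 3 that form networks (types VIII and X), 2 multiplexins (types XV and XVIII), the anchoring fibril collagen type VII, and 2 placed in no class (Col26a1 and Col28a1).

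Collagens are secreted proteins of the extracellular matrix in which chains wind into a rope-like helix, which needs a glycine at every turn and so a repeated glycine-X-Y triplet. Fibrillar collagens pack into the banded fibrils that give tissue its tensile strength, type IV forms the sheet under epithelia and endothelia, and type VI links cells and basement membranes to the fibrils. In the embryonic lung the branching epithelium rests on a type IV sheet, and the surrounding mesenchyme makes most of the fibrillar collagen.

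RNA was sequenced from 9 libraries of wild-type mouse lung, 3 per group. EPZ5676 explants were E11.5 lungs cultured with EPZ5676 (pinometostat, a small molecule that blocks the histone H3 methyltransferase DOT1L), at a dose that the labels do not give. Control explants were E11.5 lungs cultured for 72 h without it, and the series' design text gives the same 72 h for the EPZ5676 explants. E11.5 lung was taken fresh at the embryonic stage from which the explants were started. The title of the series names branching of the embryonic lung under DOT1L inhibition as its subject. The comparison of EPZ5676 with control explants bears on the inhibitor, and that of either explant group with E11.5 lung bears on 72 h of growth and culture together, which these groups do not separate.

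The libraries held 6509563 to 9861452 expected counts each. Nothing in the labels states whether the 3 libraries of a group are separate embryos or cultures. The p-values therefore measure only how far these libraries spread, and part of that spread may be technical. Within each group the sex-linked transcripts given below differed between libraries, so the 3 did not all come from the same material. Libraries alike in these transcripts may still share it. Levels are TPM (transcript abundance per library, scaled to a fixed total), which are corrected for transcript length and can be compared between genes. Log2 fold changes come from the counts and are given ± SE. A gene was called higher or lower at an edgeR adjusted p under 0.05. Dot1l itself was at 24.7, 17.35 and 20.3 TPM in EPZ5676 explants, 30.04, 23.2 and 18.8 TPM in control explants and 23.1, 23.05 and 21.2 TPM in E11.5 lung. An inhibitor of the enzyme need not change this transcript, so its level does not check the treatment.

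Some libraries stood apart. Control 1 held transcripts of other organs, with 8 liver markers summing to 227 TPM against 1.92 and 2.35 TPM in the other 2 controls, and 8 heart muscle markers to 219.8 TPM against 63.7 and 52.0 TPM. It also had the highest level of its group for 30 of the 43 collagen genes detected there. E11.5 1 had the highest sums of its group for the same lists, with liver markers at 24.4, 7.26 and 4.29 TPM and heart muscle markers at 112, 56.9 and 49.9 TPM in E11.5 1, 2 and 3, and for 6 smooth muscle markers, at 417, 210.1 and 255 TPM. It was also the highest fresh library for 30 of 42 collagen genes, and EPZ5676 1 the highest treated library for 26 of 43. Of the 7 endothelium markers, all fell in both explant groups relative to E11.5 lung, to sums of 52.9, 22.01 and 31.04 TPM in EPZ5676 explants and 75.8, 33.5 and 12.9 TPM in control explants, against 199, 196 and 180.0 TPM in E11.5 lung. All 7 epithelium markers, among them the lung factor Nkx2-1, rose in both, to sums of 934, 743 and 1017 TPM in EPZ5676 explants and 859.9, 816 and 527 TPM in control explants, against 294, 293 and 284 TPM in E11.5 lung. Xist, which marks female cells, was at 0.58, 209.7 and 0.77 TPM in EPZ5676 explants, 281, 278 and 0.25 TPM in control explants and 284, 143 and 72.5 TPM in E11.5 lung. The Y-linked Ddx3y was at 55.7, 0.44 and 49.9 TPM in EPZ5676 explants, 0, 0.08 and 45.35 TPM in control explants and 0, 20.02 and 30.2 TPM in E11.5 lung. The groups thus differed in their mix of sexes, and E11.5 2 and 3 held transcripts of both. The 3 red blood cell markers of a list of 8 blood and macrophage genes fell in both explant groups and the other 5, markers of macrophages and white blood cells, rose, with sums over the 8 of 1158, 247 and 767 TPM in EPZ5676 explants and 1169, 408 and 256 TPM in control explants, against 13423, 16298 and 15358 TPM in E11.5 lung. In whole-lung RNA, fewer cells of a type and less RNA per cell cannot be told apart.

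The 44 genes spanned a wide range of levels. Averaged over all 9 libraries, 7 genes reached 100 TPM, 27 reached 10 TPM and 37 reached 1 TPM. Together they held 3514, 3088 and 3062 TPM in EPZ5676 explants and 3996, 2924 and 3190.3 TPM in control explants, against 1903, 1481 and 1427 TPM in E11.5 lung. Every cultured library lay above every fresh one, and the 2 cultured groups overlapped. As group means the collagen transcripts were 0.322% of all TPM in EPZ5676 explants and 0.337% in control explants, against 0.161% in E11.5 lung.

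**Figure D1:**
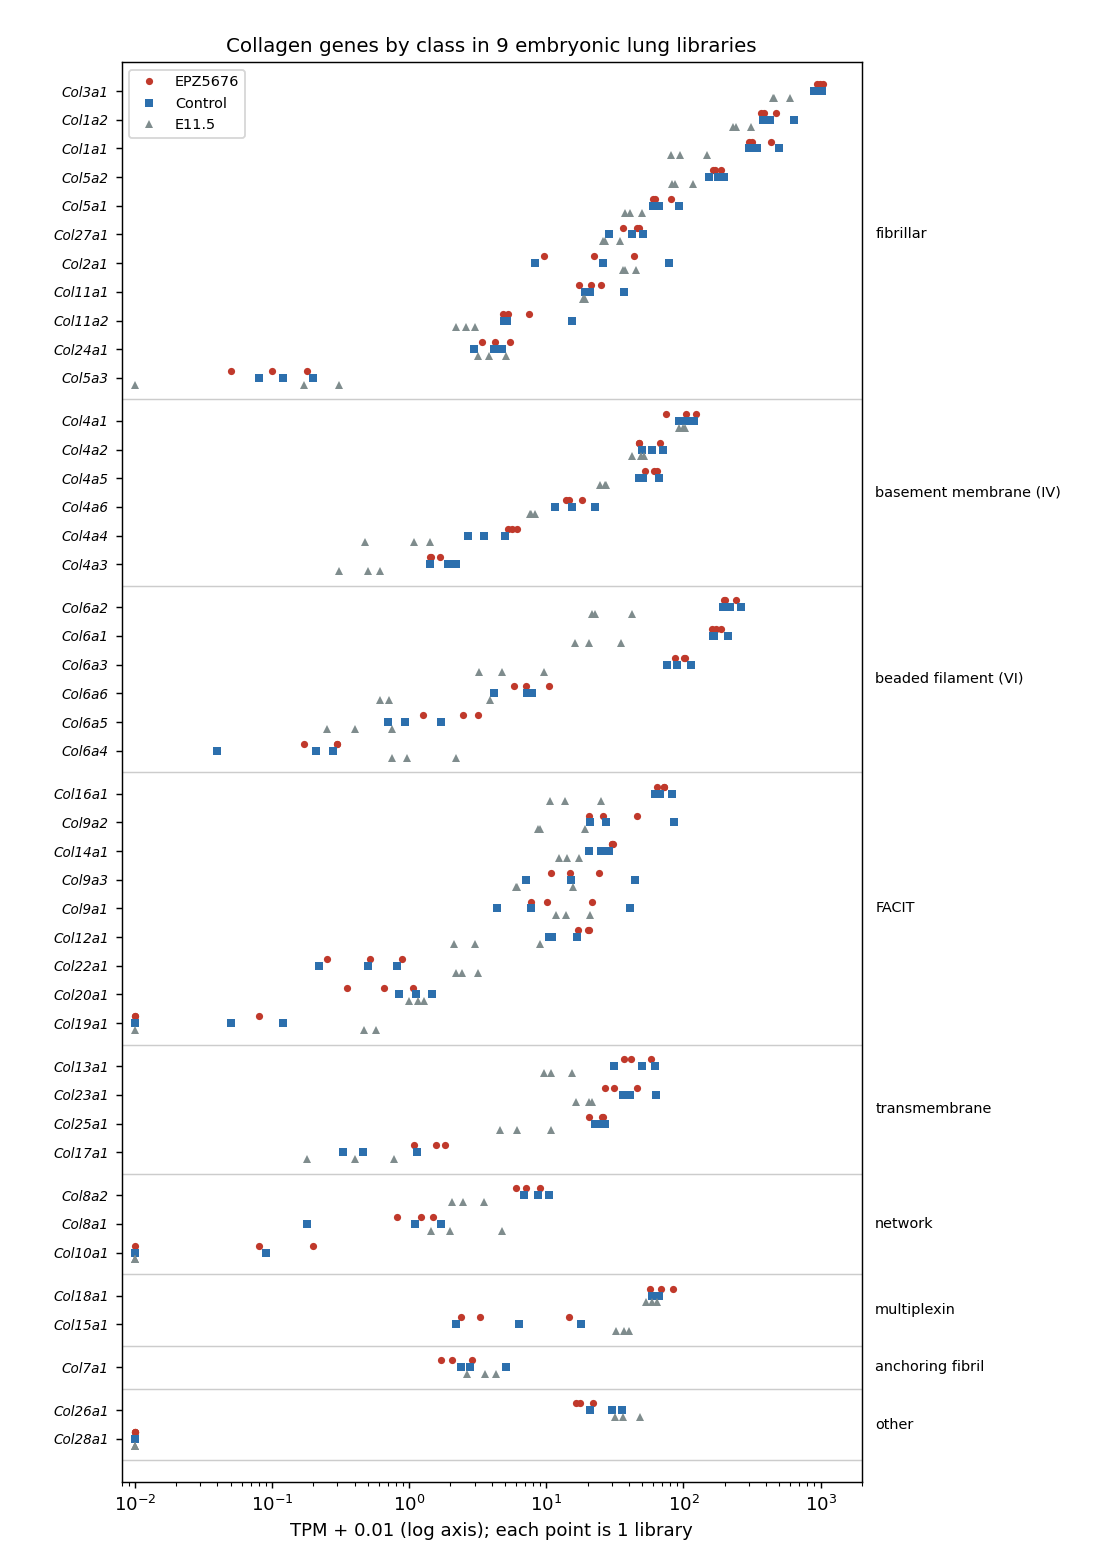
TPM + 0.01 (log axis) of each of the 44 collagen genes in the 9 libraries, with genes grouped by class and each point 1 library of EPZ5676 explants, control explants or E11.5 lung. The fibrillar genes Col3a1, Col1a2 and Col1a1 sit at the right, Col6a1, Col6a2 and Col6a3 show the widest gap between cultured and fresh libraries, and points of EPZ5676 and control explants lie mostly over each other.

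Of the 44 genes, 40 passed the filter on low counts and were tested among 15158 genes. The 4 others were at or near 0: Col28a1 was listed at 0 in every library, and Col10a1, Col19a1 and Col5a3 stayed under 0.6 TPM. Of the 40, 33 were over the count minimum in every library, so a fold change of the rest may owe its test to the group in which the gene is high. In EPZ5676 explants relative to E11.5 lung, 25 were higher, 3 lower and 12 not called, with a median log2 fold change of 0.91. Over all genes of that comparison, 22.1% were called higher and 17.9% lower, with a median of 0.02. In control explants relative to E11.5 lung, 27 were higher, 2 lower and 11 not called, with a median of 1.05. Over all genes there, 21.1% were called higher and 16.6% lower, again with a median of 0.02. Both comparisons use the same 3 fresh libraries, so they do not repeat each other independently. Between EPZ5676 and control explants, 0 of the 40 were called in either direction, and 0% of all genes were called higher and 0% lower.

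**Figure D2:**
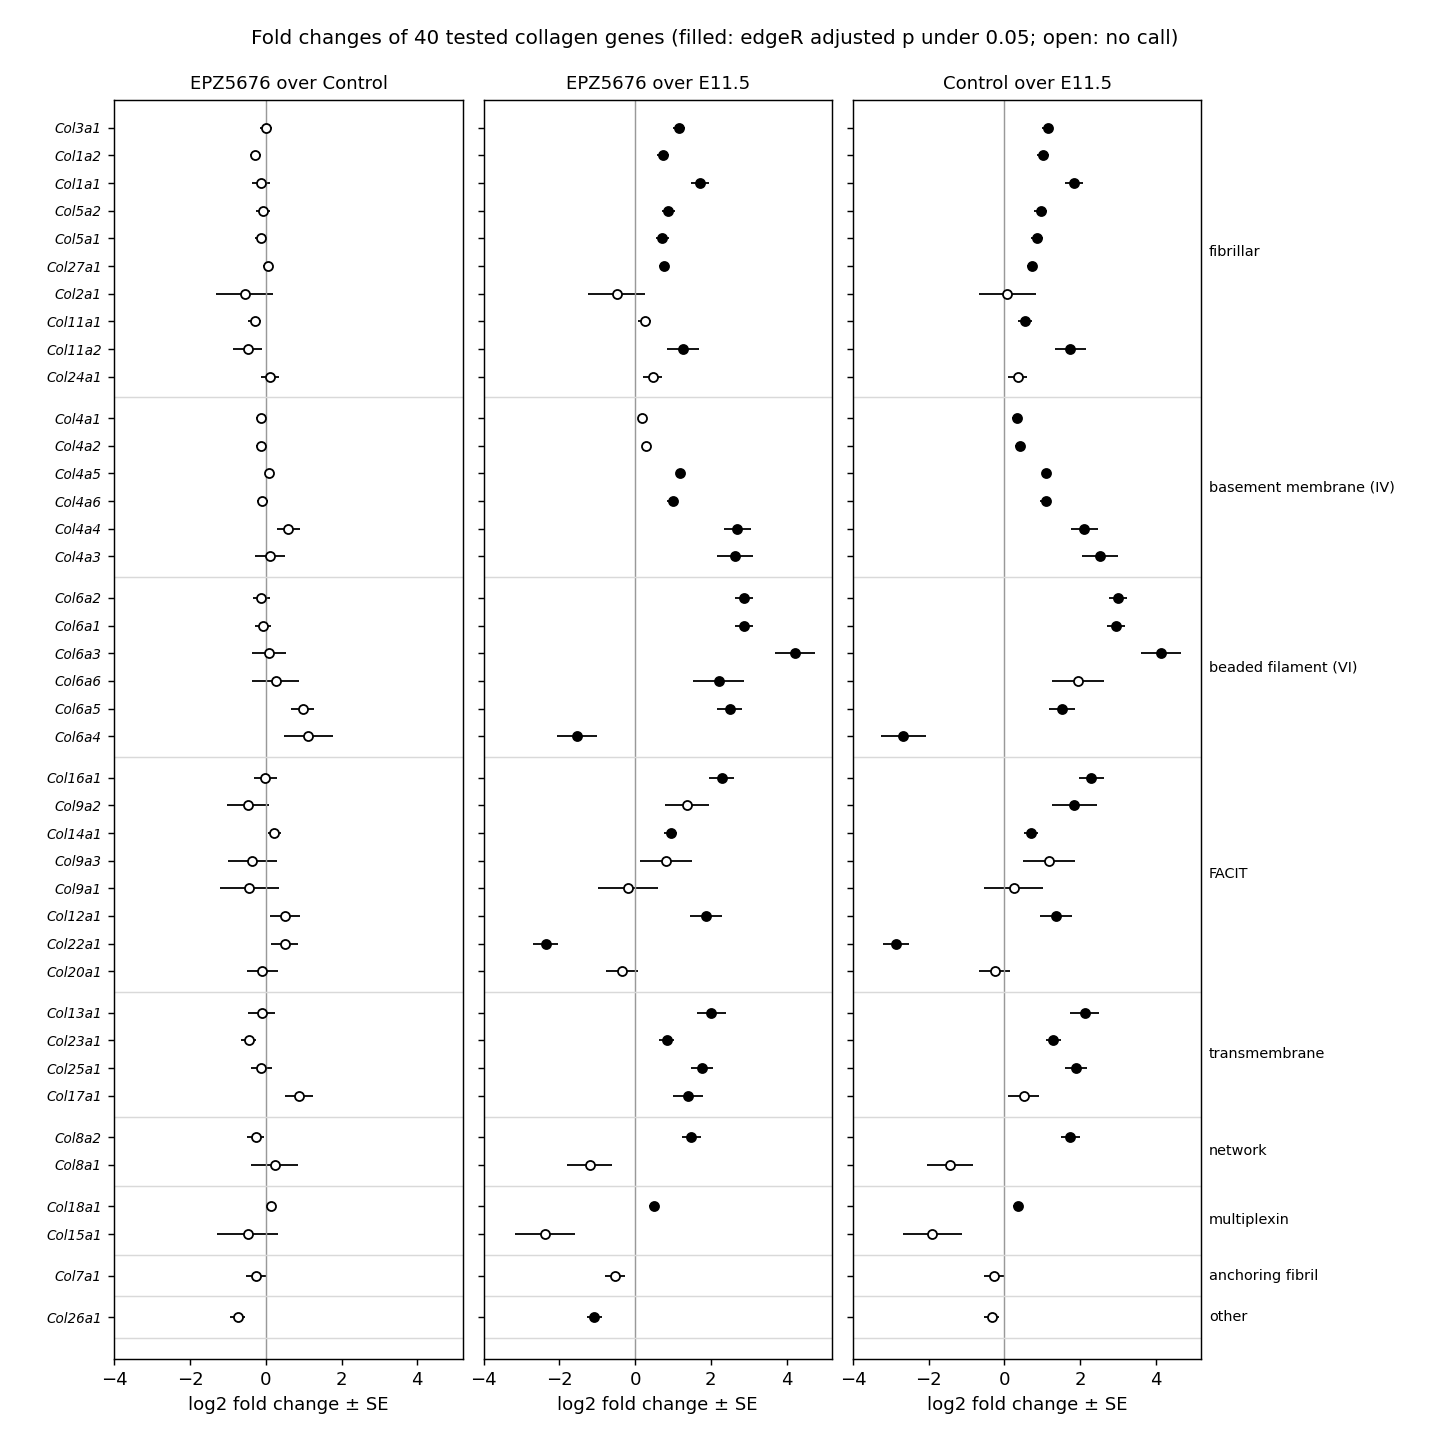
Log2 fold change ± SE from edgeR of the 40 tested collagen genes, in EPZ5676 over control explants, EPZ5676 explants over E11.5 lung and control explants over E11.5 lung. Filled points passed an adjusted p of 0.05; every point of the left panel is open, while most points of the other panels are filled and lie to the right of 0.

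The fibrillar genes made up most of the collagen transcripts. Their defining feature could be read from the coding sequence: in the longest complete GENCODE coding sequence of each of the 11 genes, the longest unbroken run of glycine-X-Y triplets was 216 to 344 triplets long, whereas in every gene of the other classes it was 113 or fewer. The 2 shortest fibrillar runs were those of Col24a1 with 216 and Col27a1 with 217 triplets, and the other 9 genes had 337 to 344. Of the 10 fibrillar genes tested, 7 rose in EPZ5676 explants and 8 in control explants relative to E11.5 lung, and 0 fell in either, with class medians of 0.75 and 0.91 on the log2 scale.

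Col3a1, whose product forms type III fibrils from a single kind of chain, was the most abundant collagen transcript. It was at 948, 1049 and 996 TPM in EPZ5676 explants, 979, 894 and 1031 TPM in control explants and 597, 455 and 452 TPM in E11.5 lung. All 6 cultured libraries lay above all 3 fresh ones. The log2 fold change was 1.15 ± 0.15 in EPZ5676 explants (edgeR adjusted p = 0.000229) and 1.15 ± 0.15 in control explants (edgeR adjusted p = 0.00029), each over E11.5 lung.

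The type I chains, the main collagen of bone, tendon and most interstitial matrix, rose in both explant groups. Whether their fold changes differ was not tested. Col1a1 was at 437, 316 and 302 TPM in EPZ5676 explants, 497, 299 and 341 TPM in control explants and 149.7, 94.5 and 80.8 TPM in E11.5 lung. Its partner Col1a2, which joins each type I molecule at a lower dose than the Col1a1 chain, was at 473, 367 and 385 TPM in EPZ5676 explants, 636, 381 and 428 TPM in control explants and 310.0, 242 and 228 TPM in E11.5 lung. Cultured and fresh libraries did not overlap for either chain. Col1a1 rose by 1.72 ± 0.24 in EPZ5676 explants and 1.85 ± 0.24 in control explants over E11.5 lung, and Col1a2 by 0.74 ± 0.16 and 1.02 ± 0.16, on the log2 scale (edgeR adjusted p = 0.000408, 0.000332, 0.00352 and 0.000673 in that order). The ratio of Col1a1 to Col1a2 TPM was 0.923, 0.863 and 0.785 in EPZ5676 explants and 0.782, 0.785 and 0.796 in control explants, against 0.483, 0.391 and 0.354 in E11.5 lung. Col1a2 thus exceeded Col1a1 in every library, and the gap was narrower in all 6 cultured libraries than in any fresh one. Between 2 groups of 3 libraries, an exact two-sided permutation test of such a ratio cannot give a p below 0.1. The 6 cultured libraries together were not tested against the 3 fresh ones, so no p is given for the ratios. The ratio of Col3a1 to Col1a1 averaged 2.93, 2.66 and 4.796 in EPZ5676 explants, control explants and E11.5 lung, lower in every cultured library than in any fresh one.

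The type V chains, which start new fibrils, both rose. Col5a2 averaged 174 ± 12.3 TPM in EPZ5676 explants, 177 ± 22.5 TPM in control explants and 95.97 ± 19.3 TPM in E11.5 lung (SD, n = 3 each), and Col5a1 averaged 67.8 ± 11.7, 72.7 ± 17.7 and 42.6 ± 6.38 TPM in the same groups. The rise was 0.88 and 0.96 for Col5a2 and 0.72 and 0.86 for Col5a1 on the log2 scale, EPZ5676 explants first in each pair. Their ratio averaged 0.392, 0.414 and 0.448 in EPZ5676 explants, control explants and E11.5 lung and overlapped between groups. Col5a3, a further type V chain, did not exceed 0.3 TPM in any library. Col27a1, a fibrillar collagen best known from cartilage, rose by 0.76 ± 0.13 and 0.72 ± 0.13 in EPZ5676 and control explants (edgeR adjusted p = 0.000857 and 0.00143). Its TPM averaged 43.3, 40.7 and 28.9 in EPZ5676 explants, control explants and E11.5 lung, and control and fresh libraries overlapped. The log2 ratio of mean TPM in control explants over E11.5 lung was 0.50. Neither call was made with limma on TPM. Col24a1, at group means of 4.35, 3.93 and 4.03 TPM in EPZ5676 explants, control explants and E11.5 lung, was called in neither comparison.

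Of the fibrillar collagens of cartilage, Col2a1 varied widely between cultured libraries. Col11a2 was called higher in both explant groups, and Col11a1 in control explants alone. Col2a1, the main cartilage fibril chain, was at 43.5, 9.61 and 22.4 TPM in EPZ5676 explants, 78.03, 25.85 and 8.29 TPM in control explants and 45.4, 37.3 and 36.2 TPM in E11.5 lung. The fresh libraries lay close together, and the cultured ones fell on both sides of them. The log2 fold change of -0.48 ± 0.76 in EPZ5676 explants and of 0.08 ± 0.75 in control explants was within its error. Col11a2, which joins Col2a1 in cartilage fibrils, was at 7.43, 4.83 and 5.27 TPM in EPZ5676 explants, 15.4, 4.92 and 5.16 TPM in control explants and 3, 2.2 and 2.58 TPM in E11.5 lung. Its cultured libraries all lay above the fresh ones, with log2 fold changes of 1.27 ± 0.42 in EPZ5676 explants (edgeR adjusted p = 0.0366) and 1.75 ± 0.41 in control explants (edgeR adjusted p = 0.00952). Without Control 1 the second fold change was 1.04. The EPZ5676 call was lost without any 1 of the 6 libraries compared, at edgeR adjusted p of 0.0566, 0.112 and 0.107 without E11.5 1, 2 and 3, and 0.107, 0.0608 and 0.0626 without EPZ5676 1, 2 and 3. Col11a1, also part of type XI, averaged 21.1, 25.5 and 18.8 TPM in EPZ5676 explants, control explants and E11.5 lung. It was not called in EPZ5676 explants over E11.5 lung (0.25 ± 0.18, edgeR adjusted p = 0.291). It passed in control explants, with overlap (0.54 ± 0.18, edgeR adjusted p = 0.0352). Without Control 1 its fold change there was 0.29 with an edgeR adjusted p = 0.0947. Its edgeR adjusted p was 0.0966, 0.0964 and 0.0795 without E11.5 1, 2 and 3.

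The 6 type IV genes lie in head-to-head pairs that share the stretch between their start sites. On GRCm38, Col4a1 (chr8:11198423-11312826, minus strand) and Col4a2 (chr8:11312805-11449287, plus strand) overlap by 22 bases at their 5′ ends. Col4a4 (chr1:82448423-82586849, minus strand) and Col4a3 (chr1:82586921-82722059, plus strand) lie 71 bases apart, and Col4a6 (chrX:141165403-141474076, minus strand) and Col4a5 (chrX:141475385-141689234, plus strand) 1308 bases apart. All 6 chains had a helix with many breaks, with 22 to 27 runs of at least 5 triplets, of which the longest had 39 to 66. The stretches from which the less abundant pairs start are shown because these pairs hold the type IV genes with the larger fold changes. They are the reference sequence from RefSeq (GRCm38.p6) on the strand of the named gene, and capitals mark the complement of a GC box. The first is the whole gap between Col4a4 and Col4a3, and the others are the 120 bases before the more upstream of the start sites that RefSeq and GENCODE give.
Col4a4 and Col4a3, gap at chr1:82586850-82586920, minus strand: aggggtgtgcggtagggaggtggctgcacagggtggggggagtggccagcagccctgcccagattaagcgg
Col4a6, chrX:141474077-141474196, minus strand: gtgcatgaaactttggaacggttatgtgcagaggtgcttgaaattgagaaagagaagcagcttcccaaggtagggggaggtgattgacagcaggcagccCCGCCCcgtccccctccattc
Col4a5, chrX:141475265-141475384, plus strand: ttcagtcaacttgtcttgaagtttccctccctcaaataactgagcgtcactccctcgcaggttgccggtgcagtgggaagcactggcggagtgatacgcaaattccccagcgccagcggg
Searched on both strands were the CCAAT box, the TATA box with the letters TATAAA and the GC box with the letters GGGCGG. In these 3 stretches only the GC box before Col4a6 was found. RefSeq windows of 300 bases, 250 before and 50 after a start site, were at hand for 35 of the 44 genes. The GC box was in 62.9% of these 35 and in 35.7% of all 32851 windows, the CCAAT box in 34.3% and 37.4%, and the TATA box in 14.3% and 13.6%.

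Of the 6 type IV genes, 4 rose in EPZ5676 explants and 6 in control explants relative to E11.5 lung, and 0 fell, with class medians of 1.09 in both. Col4a1 and Col4a2, the chains of nearly every basement membrane, had the smallest: 0.19 ± 0.12 and 0.30 ± 0.13 in EPZ5676 explants, and 0.33 ± 0.12 and 0.42 ± 0.13 in control explants. Col4a1, the most abundant of the class, was at 123, 74.5 and 104 TPM in EPZ5676 explants, 120.4, 105 and 92.99 TPM in control explants and 93.1, 102 and 99.5 TPM in E11.5 lung. The 3 groups overlapped. Its call in control explants (edgeR adjusted p = 0.0472) was lost without any 1 of the 6 libraries and under RLE and upper-quartile scaling, and the log2 difference was 0.10 on the log2(TPM + 1) scale. Without Control 1, 2 and 3 it had an edgeR adjusted p = 0.0888, 0.0979 and 0.051, and without E11.5 1, 2 and 3 an edgeR adjusted p = 0.102, 0.141 and 0.114. Col4a2 (edgeR adjusted p = 0.0232 in control explants) was likewise not called without Control 1 (edgeR adjusted p = 0.068) or without E11.5 1, 2 or 3 (edgeR adjusted p = 0.0541, 0.0698 and 0.0847).

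The X-linked pair, whose chains assemble with each other in the basement membranes of smooth muscle and kidney, rose by nearly the same amount. Col4a5 was at 63.75, 52.1 and 60.6 TPM in EPZ5676 explants, 65.96, 51.1 and 47.6 TPM in control explants and 27.2, 24.7 and 26.9 TPM in E11.5 lung. Col4a6 was at 18.1, 13.8 and 14.7 TPM in EPZ5676 explants, 22.5, 15.5 and 11.6 TPM in control explants and 7.69, 7.62 and 8.32 TPM in E11.5 lung. For both, every cultured library lay above every fresh one, whatever its Xist level. Col4a5 rose by 1.18 ± 0.10 in EPZ5676 explants and 1.10 ± 0.10 in control explants (edgeR adjusted p = 1.48e-05 and 2.97e-05), and Col4a6 by 1.00 ± 0.15 and 1.09 ± 0.15 (edgeR adjusted p = 0.000473 and 0.000332).

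The remaining pair, which with Col4a5 makes the basement membranes of the kidney filter and of alveoli, was low and had the largest fold changes of the class. Col4a4 was at 5.27, 6.14 and 5.64 TPM in EPZ5676 explants, 2.68, 3.5 and 5.03 TPM in control explants and 1.4, 0.47 and 1.07 TPM in E11.5 lung. Col4a3 was at 1.42, 1.68 and 1.44 TPM in EPZ5676 explants, 2.2, 1.42 and 1.92 TPM in control explants and 0.6, 0.49 and 0.3 TPM in E11.5 lung. Cultured and fresh libraries did not overlap for either gene. Col4a4 rose by 2.70 ± 0.35 and 2.11 ± 0.35 in EPZ5676 and control explants, and Col4a3 by 2.64 ± 0.48 and 2.53 ± 0.48, each over E11.5 lung (edgeR adjusted p = 0.000292, 0.00147, 0.00149 and 0.00223 in that order). For Col4a3 in control explants the value was 1.88 without Control 3. Col4a3 was over the count minimum in every cultured library but in only 1 of 3 fresh ones. Its fold change may thus owe its test to the cultured groups. On the log2(TPM + 0.1) scale the differences were 2.53 and 1.89 for Col4a4 and 1.55 and 1.81 for Col4a3, EPZ5676 explants first in each pair. By TPM the 2 genes were thus further apart in EPZ5676 explants than by counts. The ratio of Col4a3 to Col4a4 TPM was 0.269, 0.274 and 0.255 in EPZ5676 explants, 0.821, 0.406 and 0.382 in control explants and 0.429, 1.04 and 0.2804 in E11.5 lung. All EPZ5676 libraries lay below all others in this ratio, while control explants and E11.5 lung overlapped. From expected counts the ratio averaged 0.204 in EPZ5676 explants, 0.270 in control explants and 0.219 in E11.5 lung. By counts the means of EPZ5676 explants and E11.5 lung were thus close. Col4a3 itself had a log2 fold change of 0.11 ± 0.40 in EPZ5676 over control explants, although its mean TPM was lower in EPZ5676 explants. Whether the pairs, or the genes of a pair, differ from each other in fold change was not tested.

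The type VI genes had the highest class median. Type VI is built from Col6a1, Col6a2 and a long chain, Col6a3, in whose place Col6a4, Col6a5 or Col6a6 can stand. The run of triplets is short in all 6: the longest had 37 to 87 triplets, and triplets in runs took up 11.7% to 31.9% of the coding sequence. Of the 6 genes, 5 rose and 1 fell in EPZ5676 explants, and 4 rose and 1 fell in control explants, relative to E11.5 lung, with class medians of 2.69 and 2.45. The bases before the start sites of the 3 core chains are shown because these genes rose together, with the same source, strand rule and motifs as above.
Col6a1, chr10:76726169-76726288, minus strand: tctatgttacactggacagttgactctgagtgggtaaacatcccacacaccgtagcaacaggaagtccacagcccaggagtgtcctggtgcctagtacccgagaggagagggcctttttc
Col6a2, chr10:76623631-76623750, minus strand: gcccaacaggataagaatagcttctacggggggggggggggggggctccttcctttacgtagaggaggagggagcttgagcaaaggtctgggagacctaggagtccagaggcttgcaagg
Col6a3, chr1:90843972-90844091, minus strand: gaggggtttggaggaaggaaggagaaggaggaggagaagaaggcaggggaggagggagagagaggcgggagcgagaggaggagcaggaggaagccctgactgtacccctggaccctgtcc
None of the 3 stretches holds any of the searched motifs on either strand. In the 300-base windows, which reach further, the GC box was found for Col6a2 and Col4a5 and the CCAAT box for Col4a5. Col6a2 (chr10:76595762-76623630) and Col6a1 (chr10:76708792-76726168) lie 85161 bases apart on the same strand, and Col6a3 (chr1:90765923-90843971, minus strand) is on another chromosome.

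Col6a2, the most abundant type VI transcript, was at 241, 196 and 199 TPM in EPZ5676 explants, 264, 196 and 217 TPM in control explants and 42.2, 21.5 and 22.5 TPM in E11.5 lung. Col6a1 was at 189, 161 and 172 TPM in EPZ5676 explants, 210.1, 163 and 166 TPM in control explants and 35.1, 16.25 and 20.6 TPM in E11.5 lung. Col6a3 was at 103, 100.3 and 87.2 TPM in EPZ5676 explants, 113, 75.8 and 90.01 TPM in control explants and 9.66, 3.23 and 4.74 TPM in E11.5 lung. In all 3 genes the lowest cultured library was several times the highest fresh one, which was E11.5 1 each time. Col6a2 rose by 2.88 ± 0.24 in EPZ5676 explants and 3.01 ± 0.24 in control explants on the log2 scale (edgeR adjusted p = 2.64e-05 and 2.86e-05), and Col6a1 by 2.87 ± 0.24 and 2.95 ± 0.24 (edgeR adjusted p = 2.59e-05 and 3.04e-05). Col6a3 had the largest rise of the 40 tested collagen genes, 4.22 ± 0.53 in EPZ5676 and 4.13 ± 0.53 in control explants (edgeR adjusted p = 0.000725 and 0.000945). Without E11.5 1 the value was 5.12 in EPZ5676 and 5.04 in control explants. The ratio of Col6a1 to Col6a2 TPM averaged 0.823, 0.798 and 0.834 in EPZ5676 explants, control explants and E11.5 lung, with overlap of all groups. That of Col6a3 to Col6a2 was 0.426, 0.512 and 0.437 in EPZ5676 explants and 0.4297, 0.388 and 0.414 in control explants, against 0.229, 0.1502 and 0.211 in E11.5 lung, higher in all cultured libraries.

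The 3 alternative long chains, next to each other on chromosome 9, were all low and did not move alike. Col6a4 fell: it was at 0.16, 0.29 and 0.29 TPM in EPZ5676 explants, 0.2, 0.03 and 0.27 TPM in control explants and 2.18, 0.74 and 0.95 TPM in E11.5 lung. Its cultured libraries all lay below the fresh ones, with log2 fold changes of -1.54 ± 0.53 in EPZ5676 explants (edgeR adjusted p = 0.0379) and -2.66 ± 0.59 in control explants (edgeR adjusted p = 0.00513). Col6a4 was over the count minimum in all 3 fresh libraries and in 0 cultured ones. Its fold changes may thus owe their test to the fresh group, where it is high. The EPZ5676 call was lost without E11.5 1, 2 or 3 (edgeR adjusted p = 0.161, 0.0566 and 0.0672), without EPZ5676 1 or 3 (edgeR adjusted p = 0.116 and 0.132), and with DESeq2. Col6a5, 28810 bases from Col6a4 on the same strand, rose instead and was at 2.46, 1.25 and 3.15 TPM in EPZ5676 explants, 1.7, 0.69 and 0.92 TPM in control explants and 0.24, 0.39 and 0.74 TPM in E11.5 lung. The log2 fold change was 2.50 ± 0.33 in EPZ5676 explants, without overlap, and 1.53 ± 0.34 in control explants, with overlap (edgeR adjusted p = 0.00024 and 0.00543). Col6a5 was over the count minimum in every cultured library but in only 2 of 3 fresh ones. Col6a6 averaged 7.77, 6.38 and 1.72 TPM in EPZ5676 explants, control explants and E11.5 lung, where E11.5 1 held 3.87 TPM and the other 2 fresh libraries 0.6 and 0.7 TPM. It rose in EPZ5676 explants (2.20 ± 0.68, edgeR adjusted p = 0.0376) and was not called in control explants (1.94 ± 0.68, edgeR adjusted p = 0.0603). The control comparison was called with DESeq2 (adjusted p = 0.0365), with limma on log2(TPM + 1) (adjusted p = 0.0143) and without E11.5 1 (edgeR adjusted p = 0.000854, value 3.33). The EPZ5676 call was lost without E11.5 2 or 3 (edgeR adjusted p = 0.0896 and 0.101) and without EPZ5676 1, 2 or 3 (edgeR adjusted p = 0.0525, 0.103 and 0.0784), while without E11.5 1 it was kept with a value of 3.59.

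The make-up of the collagen transcripts differed between cultured and fresh lung. Type VI held 15.4, 15.2 and 15.3% of the summed collagen TPM in EPZ5676 explants and 14.9, 15.02 and 15.1% in control explants, against 4.903, 2.88 and 3.52% in E11.5 lung. The 6 cultured values lay within 1 percentage point of each other and far above the fresh ones. Type IV held 7.94, 6.34 and 7.65% in EPZ5676 explants and 7.12, 8.05 and 6.55% in control explants, against 9.41, 12.6 and 12.5% in E11.5 lung. The multiplexins averaged 2.36 ± 0.438% in EPZ5676 explants, 2.14 ± 0.311% in control explants and 6.06 ± 1.39% in E11.5 lung (SD, n = 3 each). Both shares were lower in every cultured library than in any fresh one, although most type IV genes rose. The fibrillar class held 65.2 ± 1.61%, 65.2 ± 1.39% and 68.6 ± 1.15% in the same groups, the FACITs 5.597 ± 0.581%, 5.59 ± 1.66% and 4.69 ± 0.989%, and the transmembrane collagens 3.27 ± 0.423%, 3.602 ± 0.595% and 2.42 ± 0.168%. By expected counts, which do not correct for length, type VI held 13.3%, 12.9% and 3.35% and type IV 9.34%, 9.21% and 14.2%.

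**Figure D3:**
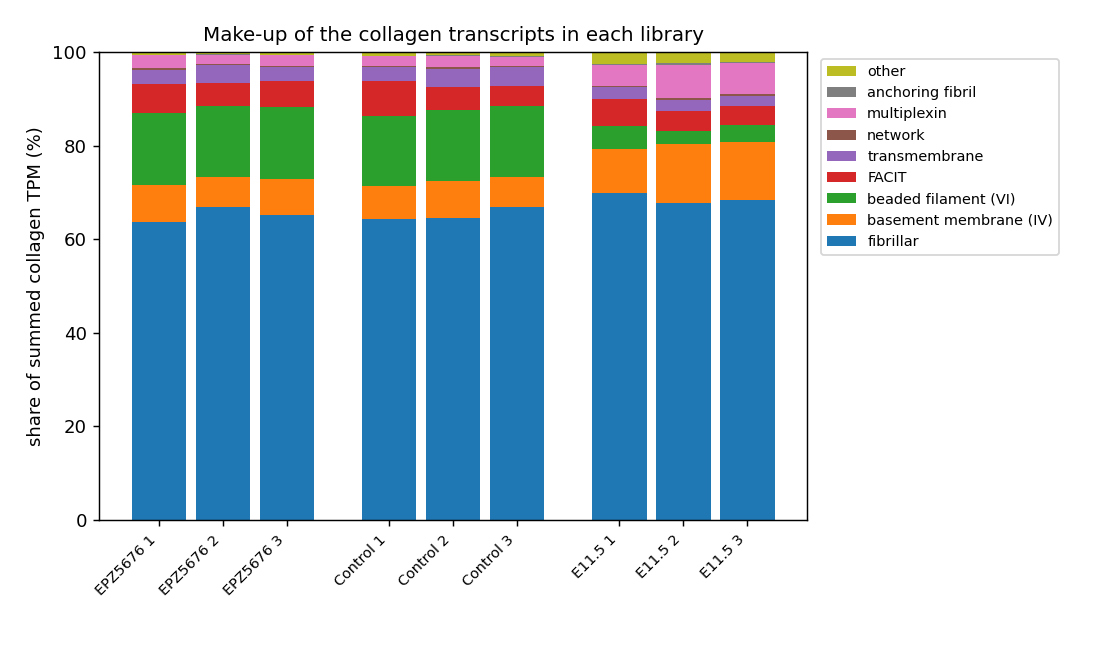
Share of the summed collagen TPM (%) held by each class, stacked from 0 to 100, with 1 bar per library of EPZ5676 explants, control explants and E11.5 lung. The type VI band is 14.9% to 15.4% in the 6 cultured libraries and 2.88% to 4.90% in the 3 fresh ones, and the type IV, multiplexin and unclassed bands are wider in the fresh ones.

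**Figure D4:**
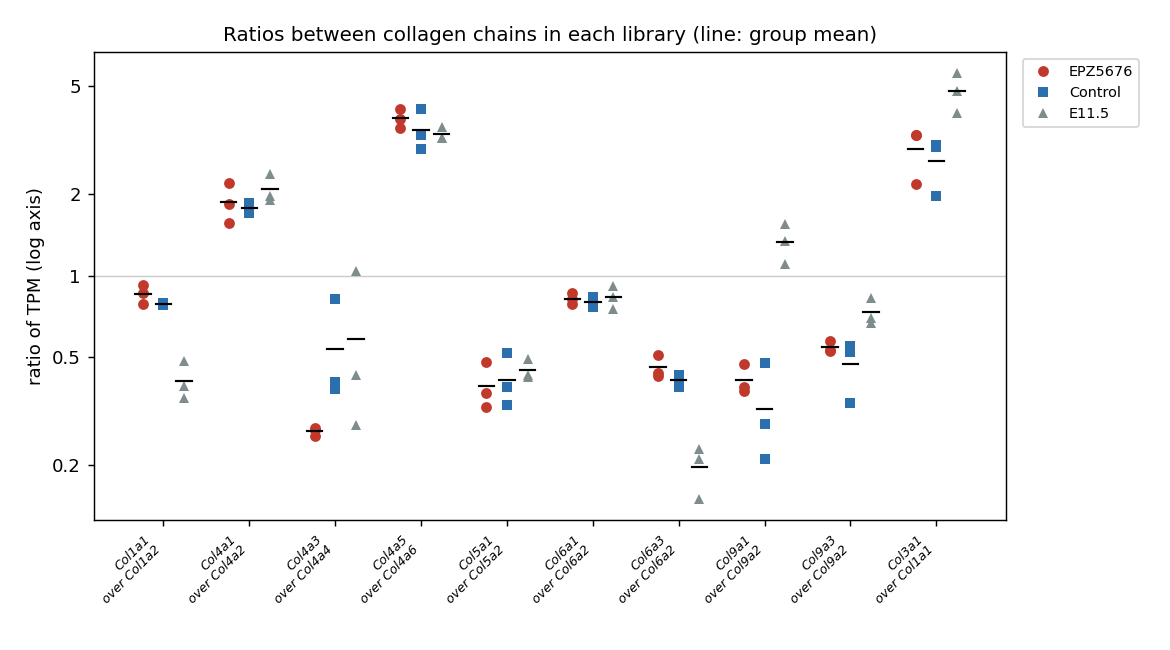
Ratio of TPM (log axis) between pairs of collagen chains, with 1 point per library and a line at each group mean, for EPZ5676 explants, control explants and E11.5 lung. Col1a1 over Col1a2 and Col6a3 over Col6a2 are higher in all cultured libraries, the type IX ratios and Col3a1 over Col1a1 are lower in them, and in the other 5 the cultured and fresh libraries overlap. By TPM, Col4a3 over Col4a4 is lower in all 3 EPZ5676 libraries than in any other library. By counts, not drawn here, the means of EPZ5676 explants and E11.5 lung are close.

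The FACITs, which sit on the surface of fibrils and do not form fibrils themselves, were mixed. Of 8 tested, 3 rose and 1 fell in EPZ5676 explants and 4 rose and 1 fell in control explants, with class medians of 0.88 and 0.95. Col16a1, the most abundant FACIT, was at 72.65, 63.7 and 72.5 TPM in EPZ5676 explants, 83.1, 67.25 and 61.5 TPM in control explants and 25.2, 13.6 and 10.6 TPM in E11.5 lung. Cultured and fresh libraries did not overlap, and the gene rose by 2.29 ± 0.33 in EPZ5676 and 2.30 ± 0.33 in control explants (edgeR adjusted p = 0.000921 and 0.00107). Col14a1 and Col12a1, which decorate type I fibrils, rose in both explant groups. Col14a1 averaged 30.4 ± 0.176 TPM in EPZ5676 explants, 24.6 ± 3.99 TPM in control explants and 14.6 ± 2.47 TPM in E11.5 lung, and Col12a1 averaged 19.3 ± 1.92, 12.7 ± 3.54 and 4.69 ± 3.73 TPM (SD, n = 3 each). The log2 fold changes were 0.94 ± 0.18 and 0.71 ± 0.18 for Col14a1 and 1.87 ± 0.42 and 1.38 ± 0.42 for Col12a1, EPZ5676 explants first in each pair (edgeR adjusted p = 0.00246, 0.0112, 0.00937 and 0.0345). In control explants the Col14a1 call was lost without E11.5 2 (edgeR adjusted p = 0.052). The Col12a1 call there was lost without E11.5 2 or 3 (edgeR adjusted p = 0.0868 and 0.0879) and without Control 1, 2 or 3 (edgeR adjusted p = 0.116, 0.0646 and 0.0688). Without E11.5 1 the Col12a1 values were 2.65 in EPZ5676 and 2.16 in control explants. Col22a1, known from the junction of muscle and tendon, fell. It was at 0.88, 0.24 and 0.51 TPM in EPZ5676 explants, 0.49, 0.21 and 0.8 TPM in control explants and 2.42, 2.19 and 3.18 TPM in E11.5 lung, without overlap, with log2 fold changes of -2.37 ± 0.33 in EPZ5676 and -2.86 ± 0.34 in control explants (edgeR adjusted p = 0.00031 and 0.00015). Col22a1 was over the count minimum in all 3 fresh libraries, but in only 2 EPZ5676 libraries and 1 control library. Its fold changes may thus owe their test to the fresh group. Col20a1 averaged 0.68, 1.13 and 1.14 TPM in EPZ5676 explants, control explants and E11.5 lung and was not called. It overlaps another gene on its own strand whose mean count was 49.8 against 16.6 for Col20a1, so its reads are uncertain.

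Type IX, the FACIT of cartilage fibrils, is built from Col9a1, Col9a2 and Col9a3. Col9a2 was at 45.6, 20.5 and 26.1 TPM in EPZ5676 explants, 85.2, 27.4 and 20.8 TPM in control explants and 18.99, 8.92 and 8.74 TPM in E11.5 lung. Col9a3 was at 24.35, 10.8 and 14.9 TPM in EPZ5676 explants, 44.7, 15.03 and 7.07 TPM in control explants and 15.8, 5.96 and 6.12 TPM in E11.5 lung, and Col9a1 at 21.6, 7.67 and 10.2 TPM in EPZ5676 explants, 40.5, 7.77 and 4.39 TPM in control explants and 20.98, 13.9 and 11.8 TPM in E11.5 lung. For all 3 chains Control 1 was the highest of the 9 libraries. Col9a2 was called higher in control explants (1.85 ± 0.58, edgeR adjusted p = 0.0423), but without Control 1 the value was 1.11 (edgeR adjusted p = 0.0982), and without E11.5 2 or 3 it had an edgeR adjusted p = 0.128 and 0.127. In EPZ5676 explants it was not called (1.38 ± 0.58, edgeR adjusted p = 0.102), nor were Col9a3 and Col9a1 in either group. The ratio of Col9a1 to Col9a2 was 0.473, 0.374 and 0.3898 in EPZ5676 explants and 0.475, 0.284 and 0.211 in control explants, against 1.105, 1.56 and 1.35 in E11.5 lung. Col9a1 was thus the more abundant chain in every fresh library and the less abundant in every cultured one. The sum of 11 cartilage markers that are not collagens was 50.2, 24.1 and 34.4 TPM in EPZ5676 explants, 74.85, 22.5 and 23.3 TPM in control explants and 30.65, 23.2 and 21.2 TPM in E11.5 lung. Control 1 and EPZ5676 1 had the highest sums of their groups, as they had the highest Col2a1 and type IX levels. In these 2 libraries most of the sum was Matn4 alone, at 50.9 TPM in Control 1 and 25.4 TPM in EPZ5676 1. The other markers did not all follow: Hapln1 was at 8.33 TPM in EPZ5676 1 and 14.85 TPM in EPZ5676 3. Acan did not exceed 3.68 TPM in any library, nor Comp 0.33 TPM. Of the list, Ucma was at 0 in every group, Matn1 at 0 in EPZ5676 explants and E11.5 lung, and Snorc at 0 in EPZ5676 explants. Of the 5 tested, Cnmd (3.46 and 2.76 in EPZ5676 and control explants) and Epyc (4.04 and 3.35) rose and Hapln1 (-1.65 and -2.12) fell in both explant groups. The part of cartilage tissue in the levels of these collagens was not tested.

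**Figure D5:**
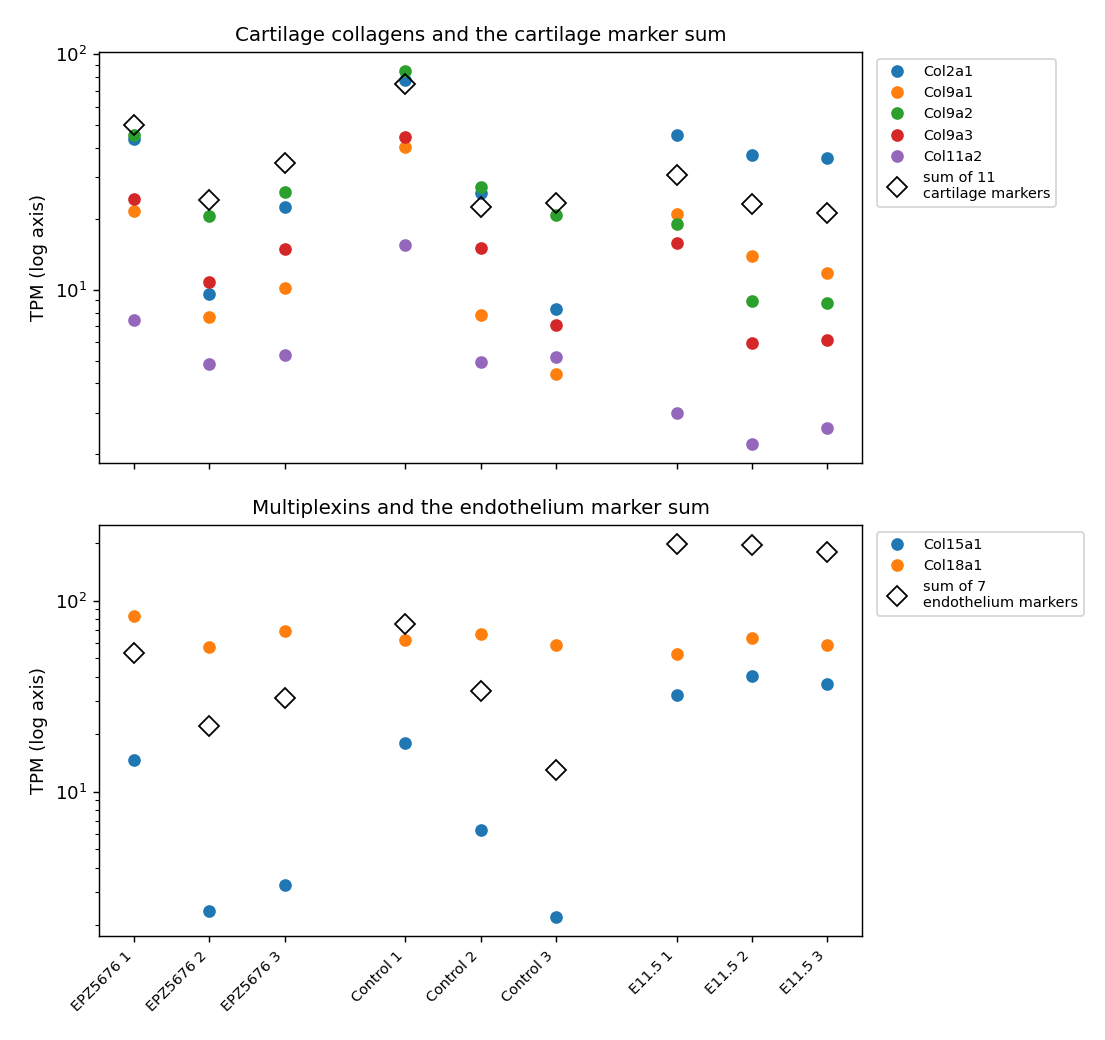
TPM (log axis) in each library of EPZ5676 explants, control explants and E11.5 lung. Above are the cartilage collagens with the sum of 11 cartilage markers (open diamonds), which is highest at 74.9 TPM in Control 1, and below are the multiplexins with the sum of 7 endothelium markers, which lies between 179.96 and 199.2 TPM in the fresh libraries and under 76 TPM in the cultured ones.

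The transmembrane collagens, which are held in the cell membrane with the helix outside, all rose in EPZ5676 explants (4 of 4), and 3 of 4 rose in control explants, with class medians of 1.58 and 1.59. Col13a1, found at cell-matrix contacts, was at 36.75, 57.8 and 41.1 TPM in EPZ5676 explants, 31.01, 49.7 and 61.95 TPM in control explants and 15.5, 9.68 and 10.8 TPM in E11.5 lung. Col25a1, known from neurons and from muscle during innervation, was at 25.4, 26.05 and 20.6 TPM in EPZ5676 explants, 22.7, 24.35 and 26.7 TPM in control explants and 10.9, 6.13 and 4.55 TPM in E11.5 lung. For both genes the cultured libraries lay above the fresh ones. Col13a1 rose by 2.01 ± 0.38 in EPZ5676 and 2.13 ± 0.38 in control explants (edgeR adjusted p = 0.00371 and 0.00322), and Col25a1 by 1.78 ± 0.29 and 1.89 ± 0.29 (edgeR adjusted p = 0.00145 and 0.00123). Col23a1 averaged 34.6 ± 10.1 TPM in EPZ5676 explants, 46.6 ± 14.4 TPM in control explants and 19.5 ± 2.72 TPM in E11.5 lung (SD, n = 3 each) and rose by 0.84 and 1.30 in the 2 explant groups. Col17a1, a component of the hemidesmosomes of basal epithelial cells, was low, at 1.55, 1.07 and 1.81 TPM in EPZ5676 explants, 0.45, 1.14 and 0.32 TPM in control explants and 0.76, 0.39 and 0.17 TPM in E11.5 lung. It was called in EPZ5676 explants over E11.5 lung (1.39 ± 0.40, edgeR adjusted p = 0.0174) and not in control explants (0.51 ± 0.42, edgeR adjusted p = 0.365). The EPZ5676 call was lost without E11.5 2 or 3 (edgeR adjusted p = 0.0633 and 0.0838) and without EPZ5676 1 or 2 (edgeR adjusted p = 0.0547 and 0.0552).

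The smaller classes held 1 to 3 genes each. Col8a2, which with Col8a1 builds the hexagonal type VIII network of vessel walls and cornea, was at 7.13, 8.94 and 5.97 TPM in EPZ5676 explants, 10.5, 6.83 and 8.64 TPM in control explants and 3.53, 2.03 and 2.45 TPM in E11.5 lung. It rose without overlap, by 1.48 ± 0.25 in EPZ5676 and 1.75 ± 0.25 in control explants (edgeR adjusted p = 0.000995 and 0.000432). Col8a1 averaged 1.16, 0.993 and 2.71 TPM in EPZ5676 explants, control explants and E11.5 lung and was called in neither. Col10a1, the collagen of hypertrophic cartilage, was at 0.19 TPM or less in every library.

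The multiplexins, proteoglycan collagens of basement membranes and vessels, did not move alike. Col18a1, the precursor of endostatin, was at 83.6, 56.9 and 69.15 TPM in EPZ5676 explants, 62.4, 66.6 and 58.7 TPM in control explants and 52.9, 63.9 and 58.5 TPM in E11.5 lung. The groups overlapped, and the gene was called higher by 0.49 ± 0.12 in EPZ5676 explants (edgeR adjusted p = 0.00733) and by 0.36 ± 0.12 in control explants (edgeR adjusted p = 0.0342). The control call was lost without Control 2 or 3 (edgeR adjusted p = 0.0948 and 0.0765) and without E11.5 1 or 3 (edgeR adjusted p = 0.122 and 0.109). On log2(TPM + 1) with limma neither call was made, with values of 0.24 in EPZ5676 and 0.10 in control explants (adjusted p = 0.231 and 0.648). Col15a1 was at 14.6, 2.38 and 3.26 TPM in EPZ5676 explants, 17.9, 6.29 and 2.2 TPM in control explants and 32.1, 40.3 and 36.6 TPM in E11.5 lung. All cultured libraries lay below the fresh ones, but the cultured values were scattered and no call was made (-2.38 ± 0.80 in EPZ5676 and -1.90 ± 0.78 in control explants, edgeR adjusted p = 0.0528 and 0.098). It was called in control explants without Control 1 (edgeR adjusted p = 0.0314) and in EPZ5676 explants without EPZ5676 1 (edgeR adjusted p = 0.0194), with values of -2.98 and -3.46. The highest cultured Col15a1 levels, in Control 1 and EPZ5676 1, were in the libraries with the highest endothelium marker sums of their groups. The part of endothelial cells in this was not tested. Col7a1, which anchors stratified epithelium to the matrix, was at 2.86, 1.7 and 2.06 TPM in EPZ5676 explants, 2.38, 2.79 and 5.06 TPM in control explants and 3.56, 4.27 and 2.64 TPM in E11.5 lung and was not called.

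Between EPZ5676 and control explants the levels of the collagen genes mostly overlapped. The median log2 fold change of the 40 tested genes was -0.09, and the errors of abundant chains differed: Col3a1 had 0.01 ± 0.15, Col1a2 -0.28 ± 0.15, Col1a1 -0.13 ± 0.23, Col4a1 -0.14 ± 0.12, Col4a5 0.08 ± 0.10, Col6a2 -0.12 ± 0.22, Col16a1 -0.01 ± 0.30 and Col6a3 0.09 ± 0.45. Differences of several SE did not pass the threshold here, Col26a1 below being an example. No gene of the 15158 passed with edgeR, where the lowest adjusted p was 0.131 and 1052 genes had an unadjusted p under 0.05. DESeq2 called 104 genes and 0 of the collagen genes. In 3 of the 40 the groups did not overlap, with EPZ5676 explants above in each, which are Col4a4, Col12a1 and Col14a1, chosen here after their values were seen. In 8.23% of all tested genes the groups did not overlap, counting both directions.

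The 3 collagen genes with the smallest p in this comparison were Col26a1, Col6a5 and Col17a1. Col26a1, a short collagen with 23.2% of its coding sequence in triplet runs, was at 21.8, 16.4 and 17.5 TPM in EPZ5676 explants, 35.6, 20.9 and 29.9 TPM in control explants and 47.9, 36.1 and 31.8 TPM in E11.5 lung. EPZ5676 explants were lowest and E11.5 lung highest on average. Control explants overlapped with both, while all treated libraries lay below all fresh ones. The log2 fold change over control explants was -0.74 ± 0.20 (edgeR adjusted p = 0.369), that of EPZ5676 explants over E11.5 lung -1.08 ± 0.20 (edgeR adjusted p = 0.00173), and that of control explants over E11.5 lung -0.33 ± 0.19 (edgeR adjusted p = 0.198). The gene was thus called against fresh lung in EPZ5676 explants alone, while the direct comparison of the 2 explant groups did not pass. Col6a5 and Col17a1, whose levels are given above, lay 0.97 ± 0.30 and 0.88 ± 0.38 above control explants on the log2 scale (edgeR adjusted p = 0.483 and 0.691), with overlap of the groups in each. Col23a1, chosen after its values were seen as the only other gene with an unadjusted p under 0.05, had -0.46 ± 0.20 (edgeR adjusted p = 0.7). Beside these, 6 of 6 mesothelium markers averaged higher in EPZ5676 explants, 4 of them without overlap, with sums of 136, 195 and 206 TPM in EPZ5676 explants and 73.7, 109.5 and 72 TPM in control explants, and 0 passed the adjusted threshold. Krt19 alone held most of each sum, at 94.8, 113 and 162 TPM in EPZ5676 explants and 48.6, 80.0 and 47.3 TPM in control explants. Of the 7 epithelium markers, 6 also averaged higher in EPZ5676 explants, 2 of them without overlap, and 0 passed. Over all tested genes the share without overlap was 8.23%, counting both directions. The part of either list in the collagen levels was not tested.

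The genes that modify, fold, cut and link collagen chains were described from lists chosen by function. Their counts are to be read against the shares of all genes called, 22.1% higher and 17.9% lower in EPZ5676 explants and 21.1% higher and 16.6% lower in control explants, each over E11.5 lung. Of 15 hydroxylase genes and partners, which add the hydroxyl groups and sugars that stabilise the helix, 7 rose and 1 fell in EPZ5676 explants and 8 rose and 2 fell in control explants relative to E11.5 lung. Plod1, a lysyl hydroxylase, rose by 0.87 ± 0.13 and 0.86 ± 0.13, and Crtap, part of the prolyl 3-hydroxylation complex, by 0.59 ± 0.10 and 0.70 ± 0.10. P3h2, a prolyl 3-hydroxylase, rose in control explants (0.71 ± 0.18) and was not called in EPZ5676 explants (0.43 ± 0.18). P3h4, an adaptor in lysyl hydroxylation of collagen, rose by 0.78 ± 0.12 and 0.60 ± 0.12. Colgalt2, a collagen galactosyltransferase, fell in both, with -1.09 ± 0.39 and -1.66 ± 0.41, and was under 2 TPM in every library. The catalytic subunit P4ha1 of prolyl 4-hydroxylase fell in control explants (-0.42 ± 0.14, edgeR adjusted p = 0.0373) and was not called in EPZ5676 explants (-0.06 ± 0.14), with no call between the 2 (0.37 ± 0.14).

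Of 10 genes of folding and secretion, 4 rose and 1 fell in EPZ5676 explants and 4 rose and 0 fell in control explants. Those that rose in both were Creb3l1, a transcription factor of the secretory pathway (0.82 ± 0.14 and 1.14 ± 0.14 in EPZ5676 and control explants), Fkbp14, a foldase (0.90 ± 0.16 and 0.82 ± 0.16), Sec24d, a coat protein of export vesicles (0.69 ± 0.11 and 0.81 ± 0.11), and Sparc, a collagen-binding matrix protein (0.65 ± 0.10 and 0.47 ± 0.10). Serpinh1, the collagen chaperone HSP47, had 0.11 ± 0.08 and 0.15 ± 0.08 and was not called. Of 7 tested genes of propeptide cleavage, which trims fibrillar chains so that fibrils can form, 3 rose in each explant group, and 1 fell in EPZ5676 explants. Adamts2, which removes the amino-terminal propeptide, was at 6.67, 7.6 and 5.99 TPM in EPZ5676 explants and 6.7, 6.06 and 9.19 TPM in control explants, against 1.52, 0.73 and 1.27 TPM in E11.5 lung. It rose by 2.90 ± 0.34 and 3.10 ± 0.34 (edgeR adjusted p = 0.000148 and 0.000126). Its relative Adamts14 rose by 1.84 ± 0.38 and 1.56 ± 0.39, and Bmp1, which removes the carboxy-terminal propeptide, by 0.44 ± 0.09 and 0.50 ± 0.09.

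Of 5 tested crosslinking genes, 2 rose and 2 fell in EPZ5676 explants and 2 rose and 1 fell in control explants. The lysyl oxidase Loxl1 was at 24.6, 17.8 and 19.6 TPM in EPZ5676 explants and 31.5, 14.3 and 19.7 TPM in control explants, against 4.77, 3 and 3.85 TPM in E11.5 lung, and rose by 2.42 ± 0.26 and 2.52 ± 0.26 (edgeR adjusted p = 6.77e-05 and 7.06e-05). Lox rose by 1.12 ± 0.22 and 0.68 ± 0.21, whereas Loxl2, which also acts on type IV collagen, had -0.83 ± 0.12 and -0.93 ± 0.12, a fall in both. Pxdn, which links type IV chains through a sulfilimine bond, fell in EPZ5676 explants (-0.39 ± 0.14, edgeR adjusted p = 0.0411) and was not called in control explants (-0.04 ± 0.14). Of 8 tested collagen receptors, 2 rose and 2 fell in each explant group, which is near those shares. Ddr1, the discoidin receptor of epithelia, rose by 1.07 ± 0.15 in EPZ5676 and 0.82 ± 0.15 in control explants, and Mrc2, an endocytic receptor for collagen, by 0.42 ± 0.10 and 0.66 ± 0.10. Ddr2, the discoidin receptor of mesenchyme, had -0.53 ± 0.08 and -0.37 ± 0.08, and the integrin chain Itga2 had -1.54 ± 0.25 and -1.51 ± 0.25, falls in both. In EPZ5676 relative to control explants, 0 genes of these 5 lists were called, and the median of each list was between -0.10 and 0.01 on the log2 scale.

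Markers of the cells that make collagen went both ways. Of 8 fibroblast and mesenchyme markers, 4 rose and 3 fell in EPZ5676 explants and 3 rose and 2 fell in control explants, and their sums were 957, 899.8 and 879 TPM in EPZ5676 explants, 1073.5, 881 and 1085 TPM in control explants and 835, 906 and 869 TPM in E11.5 lung, with overlap of cultured and fresh libraries. Vim was the largest part of every sum, at 314 to 467 TPM in cultured and 451 to 497 TPM in fresh libraries. Dcn was at 126 to 311 TPM in cultured and 11.6 to 25.0 TPM in fresh libraries. The sums thus weigh a few genes heavily and do not measure the amount of mesenchyme. The median log2 fold change of the list was 0.09 in EPZ5676 and 0.40 in control explants. Dcn and Lum, small proteoglycans that bind type I fibrils, rose by 3.50 ± 0.53 and 2.89 ± 0.77 in EPZ5676 explants and 3.66 ± 0.53 and 3.36 ± 0.77 in control explants, while the mesenchymal transcription factors Tbx5 and Foxf1 fell in both (-1.31 and -1.16, and -0.82 and -0.66). Of 6 smooth muscle markers, 3 rose and 0 fell in each explant group. The shares of all genes called over E11.5 lung were 22.1% higher and 17.9% lower in EPZ5676 explants. In control explants they were 21.1% higher and 16.6% lower. No marker of these 2 lists was at 0 in any whole group, and their part in the collagen levels was not tested.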

How the data were processed

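TRIzol was used to isolate RNA, of which 1 ug per sample went into libraries with the Vazyme VAHTS Universal V8 kit, per the labels' protocols. Bowtie2, RSEM and the mm10 build appear in the submitters' processing notes, without versions or roles. The deposited values are expected counts (RSEM-style estimates by gene, some of them fractional) and TPM, both made by the authors. Whether counting used strand is not stated in the labels, so reads of overlapping or antisense genes may be mixed, and reads that several genes share are divided by estimate. All 55286 identifiers and symbols matched GENCODE M21 (GRCm38, the assembly of mm10), from which positions, strands and coding sequences were taken. Promoter windows came from RefSeq (GRCm38.p6).

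Expected counts were rounded, filtered with filterByExpr (minimum count 10, which left 15158 genes) and given TMM factors. A single fit by group took all 9 libraries (6 residual degrees of freedom). Tests were two-sided and made with edgeR 4.0.16 (robust quasi-likelihood test, the legacy variant, R 4.3.3). P-values were adjusted by Benjamini-Hochberg over all genes tested, with a threshold of 0.05. The SE was derived from the F statistic. The fits were tested on simulated data. TPM were used as deposited for levels, sums and ratios, with SD over 3 libraries, so fold changes from counts and ratios of TPM need not match. No library was a duplicate: within groups, every pair of libraries gave a chi-square over its degrees of freedom of 2.68 to 31.6.

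The collagen genes and the other lists were chosen with earlier results of these data known. Values per library are given for the most abundant gene of each class, for up to 2 genes each way with the largest called change in control explants over E11.5 lung, for the 3 genes with the smallest p between explant groups, and for the partner chains of a molecule. A few more are given where a sentence turns on them. From other lists, up to 4 called genes with the largest change in either explant group are named, and P4ha1, Serpinh1 and Pxdn were chosen after their values were seen. The alternatives tried were DESeq2 1.42.0, edgeR's newer method, scaling by RLE or the upper quartile, no filter and a filter of 50 counts in 3 libraries. Others were only the 6 libraries compared, the replicate number as a block, limma 3.58.1 (trend) on log2(TPM + 1) and log2(TPM + 0.1), and leaving out each library. The constant added to TPM shrinks TPM ratios of low genes. Values on log2(TPM + 0.1) were still not always below those from counts, as for Col17a1 in EPZ5676 explants over E11.5 lung (1.67 against 1.39). Figures were drawn with matplotlib 3.10.9.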

Additional observations from a re-analysis of the deposited data

How the results depend on the processing

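In EPZ5676 against control explants, 0 collagen genes were called under any of the 16 alternatives, while over all genes edgeR called 0, DESeq2 104, edgeR without a filter 76, and edgeR with 1 library left out 0 to 26, the most without EPZ5676 2. No called collagen gene changed sign under any alternative in the other comparisons. Calls lost when a library was left out stand beside each gene. Collagen genes called lower in control explants over E11.5 lung were 1 with the filter of 50 counts, and those in EPZ5676 explants over E11.5 lung were 5 when only the 6 libraries compared were fitted. On TPM with limma, 7 of the 29 calls in control explants over E11.5 lung were lost (Col11a1, Col18a1, Col27a1, Col4a1, Col4a2, Col6a5 and Col9a2), and 3 of the 28 in EPZ5676 explants over E11.5 lung (Col11a2, Col18a1 and Col27a1). Shares by expected counts differ from those by TPM because counts grow with transcript length. Low counts limit Col6a4, Col22a1, Col17a1, Col4a3, Col6a5, Col20a1, Col8a1 and the genes not tested. Of these, Col6a4 was over the count minimum in the fresh libraries alone.

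With the replicate block (the replicate number as a factor), 1 gene was called between EPZ5676 and control explants and 0 of the collagen genes. In control explants over E11.5 lung, 29 of the 29 calls were kept and Col15a1 and Col9a3 were added. In EPZ5676 explants over E11.5 lung, 26 of 28 were kept, Col6a4 and Col6a6 were lost, and Col15a1, Col9a2 and Col9a3 were added. Libraries with the same number did not deviate together in all pairs: the correlations of deviations from the group means were 0.457, 0.0789 and -0.0468 between EPZ5676 and control explants 1, 2 and 3, and between -0.102 and 0.0298 in the other pairs of the same number. Control 3 correlated best with EPZ5676 2 (0.265), so not every library went with its own number. The highest correlation of all, 0.457, was between libraries of the same number. Deviations from means of only 3 libraries depend on each other, so these correlations cannot exclude a pairing. The labels do not say what equal numbers mark, and the main fit used no pairing.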
